A study of Homo sapiens with 16 samples.

Results

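The effect of ISRIB by itself on ribosome occupancy was examined in HEK293T cells that had not been stressed. The comparison used 4 of the 16 libraries of the series, which are the 2 Ribo-Seq libraries (a and b) of cells given 200 nM ISRIB for 1 hr and the 2 of untreated cells. Members were the transcripts for which a coding length was given and which held at least 10 counts in at least 2 of those 4 libraries. This left 12315 of 21520 transcripts, and 1985 of them carried a gene symbol. HEK293T is a transformed line derived from human embryonic kidney that carries a viral large T antigen, so all libraries share that transgene, and neither group received the ER stressor tunicamycin (Tm). The other libraries came from cells given 1 µg/ml Tm for 1 hr with or without ISRIB, and from the mRNA of the same lysates.

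The integrated stress response (ISR) starts when a stress-activated kinase phosphorylates the translation initiation factor eIF2, which then inhibits its own exchange factor, eIF2B. Initiation slows on most mRNAs, whereas a small group whose 5′ untranslated regions (5′ UTRs) hold upstream open reading frames (uORFs) is translated more. ISRIB is a small molecule known to make cells insensitive to eIF2 phosphorylation. Added to unstressed cells, it asks how much of the resting translation of these mRNAs depends on the pathway.

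The start codons of ATF4, IFRD1 and UCP2 are shown first, because a scanning ribosome meets other AUGs before the coding sequence of these mRNAs. Among the ISR and uORF targets these are the ones that were lower with ISRIB at an unadjusted p under 0.05, so they were chosen after their values were seen. The windows are from GENCODE v29 (GRCh38), written as DNA, with the start codon in capitals, 9 bases before it and 12 bases after it. ATF4 (chromosome 22, 39519695 to 39522685, plus strand) encodes the transcription factor at the centre of the ISR, and its annotated 5′ UTR of 280 nt holds 3 upstream AUGs. IFRD1 (chromosome 7, 112422968 to 112481017, plus strand), a transcriptional co-regulator, has 1 in 261 nt. UCP2 (chromosome 11, 73974667 to 73983307, minus strand), a mitochondrial carrier protein, has 5 in 843 nt, of which the last is shown. These coordinates and counts belong to the isoform matched by symbol and coding length, and another isoform can hold another number.
ATF4 upstream AUG 1: cgcccacagATGtagttttctctg
ATF4 upstream AUG 2: acggccaccATGgcgtattagggg
ATF4 upstream AUG 3: gcttaagccATGgcgcttctcacg
ATF4 coding sequence: caccgcaacATGaccgaaatgagc
IFRD1 upstream AUG: gagagaaacATGtatcgttttcga
IFRD1 coding sequence: cgtcccacgATGccgaagaacaag
UCP2 upstream AUG 5: gatcgggccATGatagccactggc
UCP2 coding sequence: atcagcatcATGgttgggttcaag
The first ATF4 AUG lies 258 nt before the coding sequence and is followed at once by a stop codon. The second lies 196 nt before it and opens a frame of 3 codons. The third, 97 nt upstream, begins a frame of 59 codons whose stop lies inside the coding sequence. The upstream frame of IFRD1 starts 202 nt before its coding sequence and has 52 codons. The 5 upstream AUGs of UCP2 lie in the same frame and share a stop. The first lies 570 nt before the coding sequence and opens 144 codons. The one shown lies 186 nt before the coding sequence, 16 codons before that stop. An upstream AUG is a common feature, found in 48.9% of the 1866 transcripts matched to the annotation, and the letters alone do not show that any of them is used.

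The counts on transcripts with a coding length were 8330380 and 11998181 in the untreated libraries and 4716419 and 6237775 in the ISRIB libraries. The chi-square of the paired counts of replicates, which grows with depth, was 5.13 per degree of freedom for untreated cells, 1.6 for ISRIB, 1.74 for Tm and 2.12 for Tm+ISRIB. The SD of the log2 ratio of b over a, in transcripts with a mean of at least 20 CPM (counts scaled to a common library total), was 0.17, 0.15, 0.18 and 0.15 in the same order. The untreated pair thus stood apart by the first measure and not by the second, and the leading results are also given without 1 of the untreated libraries. The check of the HEK293T label on marker genes was not decisive. HES6 and SIX2 passed the count rule and NES did not, with 4 to 22 counts, and 7 of 8 genes chosen as markers of blood, striated muscle or mature neurons passed as well. The highest of these was ACTA1, at 180 to 196 CPM, whose coding sequence is close to that of the actins all cells express, so its counts are uncertain.

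Very few transcripts passed the test for a change in footprints with ISRIB alone. At a false discovery rate (FDR) of 0.1 in edgeR's quasi-likelihood test, 2 of 12315 transcripts passed (0.0162%), 1 in each direction (0.00812% each), and 473 had an unadjusted p under 0.05 (3.84%). ATF4 fell, and the transcript uc001miq.3, for which no symbol was at hand, rose. Only uc001miq.3 was beyond 2-fold. DESeq2 called none, with 90 at an unadjusted p under 0.05. Without the untreated library a 53 transcripts passed in edgeR, without the untreated library b 139 passed, and without ISRIB library b only uc001miq.3 did. CPM are shares of a library, so a change common to all transcripts could not be seen.

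The interval of each transcript shows the sizes of effect that the fit allowed for it. These intervals were not adjusted for the number of transcripts. Their spread had 2 residual degrees of freedom, with 25.8 more borrowed across transcripts. The 95% interval of the log2 fold change lay within 2-fold in both directions for 11096 transcripts (90.1%) and within 1.5-fold for 8943 (72.6%). Of the 6876 transcripts with a mean of at least 20 CPM, 6875 were within 2-fold and 6813 (99.1%) within 1.5-fold, and none had an estimate beyond 2-fold. The middle 95% of all estimates ran from -0.55 to 0.40, with a median of 0.00.

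**Figure D1:**
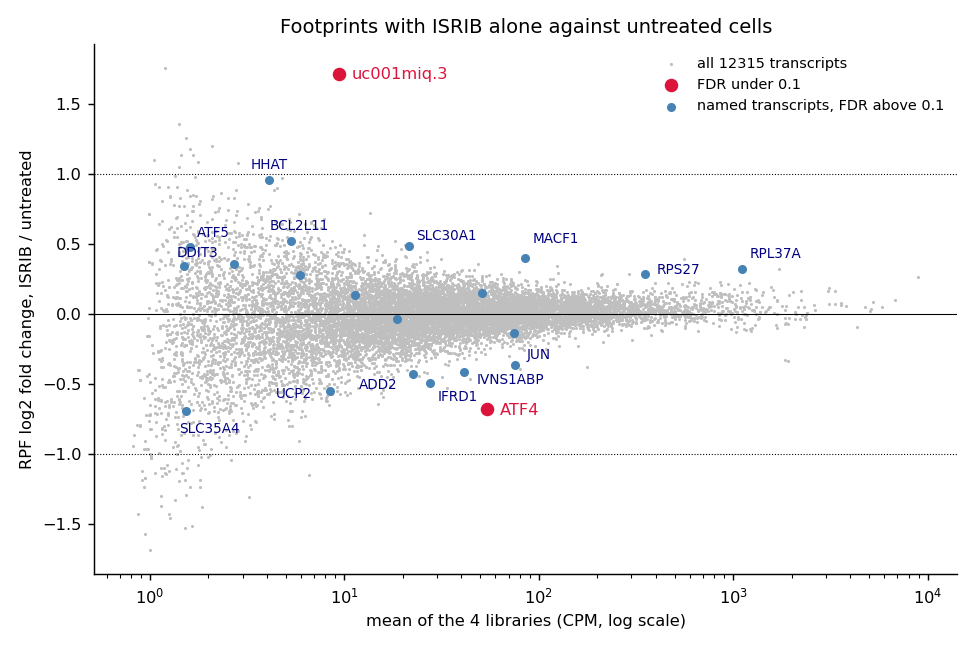
RPF log2 fold change of ISRIB over untreated (y axis) against the mean level of the 4 libraries in CPM (x axis, log scale) for 12315 transcripts, with dotted lines at 2-fold. ATF4 at -0.68 and uc001miq.3 at 1.71 are the red points past an FDR of 0.1, and the blue points are named transcripts that did not pass.

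ATF4 had 76.7 and 57.7 CPM in the untreated libraries, from 653 and 689 counts, and 42.6 and 40.7 CPM in the ISRIB libraries, from 199 and 251 counts. Both ISRIB libraries lay below both untreated ones, and the untreated pair differed more than the ISRIB pair. The mean without ISRIB was 67.2 ± 13.4 CPM (SD, n = 2), and with ISRIB it was 41.6 ± 1.39 CPM (SD, n = 2). The footprints of ATF4 fell by 37.7%, with a log2 fold change of -0.68 (SE 0.12, 95% interval -0.93 to -0.43) and an FDR of 0.0355 in edgeR. The call did not hold in DESeq2 (FDR 0.257) or without ISRIB library b (FDR 0.252). Without the untreated library a, which held the highest value, the log2 fold change was -0.47 and the FDR 0.0121.

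ATF4 mRNA from the same lysates was level, with 762 and 838 CPM in untreated cells and 828 and 728 CPM with ISRIB. The groups overlapped, and the mRNA log2 fold change was -0.04 (SE 0.11, 95% interval -0.28 to 0.21). The change in translational efficiency, which is the RPF change less the mRNA change, was estimated at -0.65 (SE 0.18) but did not pass (FDR 0.603). That fit draws on the spread of both assays and of 8 libraries.

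The transcript that rose is a very short one. Only 5 codons of uc001miq.3 were counted, and its counts were 15 and 77 in the untreated libraries and 83 and 72 with ISRIB. In CPM these were 1.76 and 6.45 against 17.8 and 11.7, so the groups did not overlap, but the untreated libraries also differed widely from each other. The log2 fold change was 1.71 (SE 0.30) with an FDR of 0.0355 in edgeR. The call was lost in DESeq2 and with the replicate letter as a block (FDR 0.147 in edgeR). Without the untreated library a the log2 fold change was 1.15, and without the untreated library b it was 3.02, both past the threshold. It was joined to no mRNA-Seq transcript.

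Footprints of the other 3 ISR targets were sparse in unstressed cells, and none of the 3 passed. For untreated a and b, then ISRIB a and b, PPP1R15A had 46, 63, 33 and 37 counts. DDIT3 had 18, 31, 15 and 18, and ATF5 had 12, 15, 10 and 10. PPP1R15A, which encodes the stress-induced regulatory subunit of the eIF2 phosphatase, had 5.40 and 5.28 CPM untreated and 7.07 and 5.99 CPM with ISRIB. DDIT3, the transcription factor CHOP, had 2.11 and 2.60 CPM against 3.21 and 2.92 CPM. ATF5, a transcription factor related to ATF4, had 1.41 and 1.26 CPM against 2.14 and 1.62 CPM. In each of the 3 both ISRIB libraries were the higher ones. Their log2 fold changes were 0.28 (SE 0.25), 0.35 (SE 0.35) and 0.48 (SE 0.45), and each interval included 0. Across the genome 15.4% of the transcripts had both ISRIB libraries above both untreated ones and 16.4% had both below. The list thus held 1 call among 4 members, a fall, where 0.00812% of all transcripts were called lower. Its median of 0.31, beside 0.00 over all transcripts tested, had the opposite sign but rests on these sparse members.

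Of the 9 further uORF targets none passed, where 0.0162% of all transcripts did, and they lay on both sides of 0, with 4 above, 5 below and a median of -0.04. IFRD1 had 35.3 and 29.4 CPM untreated and 25.3 and 20.7 CPM with ISRIB. Its groups did not overlap, and its log2 fold change of -0.50 (SE 0.14) had an unadjusted p of 0.00156 from edgeR and an FDR of 0.919. Without the untreated library b the FDR of IFRD1 was 0.00654 and the log2 fold change -0.64, and without the untreated library a they were 0.446 and -0.37. UCP2 had 11.2 and 9.05 CPM against 6.64 and 6.96 CPM, also without overlap, with a log2 fold change of -0.55 (SE 0.22) and an unadjusted p of 0.0196. IFRD1 mRNA had a log2 fold change of -0.18 (SE 0.10) and UCP2 mRNA one of -0.02 (SE 0.31).

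SLC35A4, a member of the nucleotide-sugar transporter family, was too thinly covered to measure. It had 14 and 26 counts untreated and 4 and 9 with ISRIB, and its estimate of -0.70 had a 95% interval from -1.65 to 0.26. From these same libraries the study reported lower basal translation of SLC35A4 with ISRIB alone, along with ATF4 and a few other mRNAs. C7orf31 had 12, 16, 3 and 16 counts, and its estimate of 0.34 had an SE of 0.49. Neither SLC35A4 nor C7orf31 can be placed against a 1.5-fold change at this depth.

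The estimates of SAT1, PPP1R15B and PTP4A1 were close to 0. SAT1, which acetylates polyamines, had 85.0 and 71.5 CPM untreated and 72.8 and 69.0 CPM with ISRIB (log2 fold change -0.14, SE 0.10). PPP1R15B, the constitutive subunit of the eIF2 phosphatase, had 48.1 and 48.7 CPM against 58.0 and 49.6 CPM (0.14, SE 0.11). PTP4A1, a protein tyrosine phosphatase, had 18.0 and 20.2 CPM against 16.7 and 20.2 CPM (-0.04, SE 0.15). The 95% intervals of all 3 lay within 1.5-fold. PNRC2, a nuclear receptor coactivator, was at 0.13 (SE 0.20), and BCL2L11, the pro-apoptotic protein BIM, at 0.52 (SE 0.30) with its libraries overlapping.

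**Figure D2:**
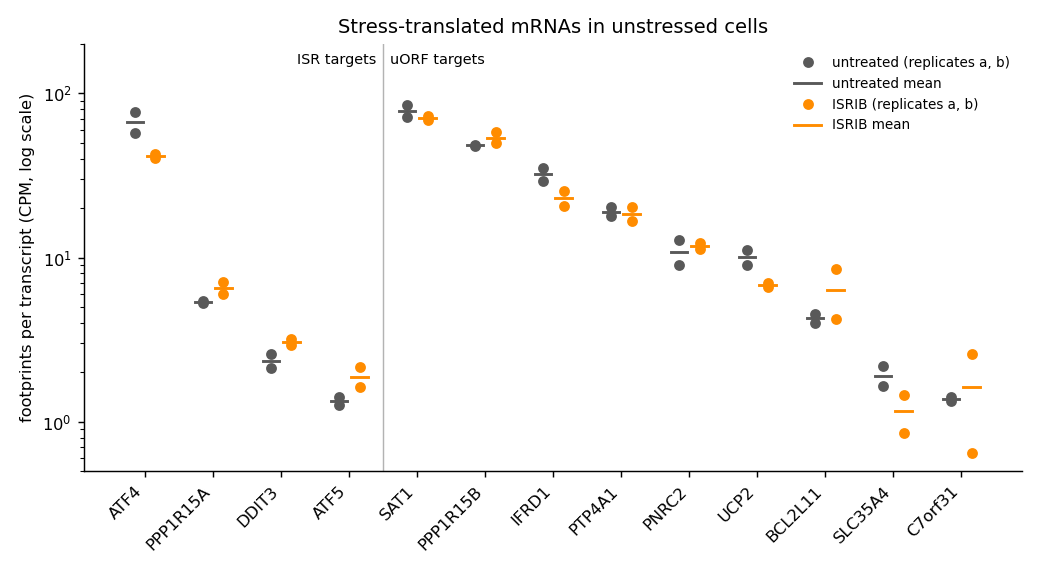
Footprint level (CPM, log scale) of the 4 ISR targets and 9 uORF targets in each untreated (grey) and ISRIB (orange) library, with bars at the mean of 2 replicates. ATF4, IFRD1, UCP2 and SLC35A4 had both ISRIB libraries below both untreated ones, PPP1R15A, DDIT3, ATF5 and PPP1R15B had both above, and the rest overlapped.

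The typical response to ISRIB alone was near 0 whatever the number of upstream AUGs. The median RPF log2 fold change was 0.01 for the 953 transcripts without one, 0.01 for the 381 with 1, 0.00 for the 205 with 2 and 0.00 for the 327 with 3 or more. The share with both ISRIB libraries below both untreated ones was 14.4%, 11.3%, 18.0% and 19.3%, and the share with both above was 16.2%, 16.5%, 15.6% and 17.1%. The 5′ UTRs differed in length along the same order, from a median of 105 nt to 425 nt.

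The effect of ISRIB was then set against its effect in cells that also received Tm. The difference of the effects, fitted over the 8 Ribo-Seq libraries, passed an FDR of 0.1 for 814 transcripts (6.61%), of which 370 were higher in the unstressed comparison (3.0%) and 444 lower (3.61%). DESeq2 called 366, and without 1 of the 8 libraries edgeR called from 229 (without Tm+ISRIB a) to 1218 (without untreated b). All 4 ISR targets and 6 of the 9 uORF targets were among the 370. The study had listed the 4 ISR targets and 8 of the 9 uORF targets, all but PPP1R15B, as higher with Tm than without in these same libraries. The difference contains that contrast, so its direction is favoured by the choice of these members, and their values are a description. ATF4 had a log2 fold change with ISRIB of -2.93 (SE 0.11) in Tm-treated cells, and the effects differed by 2.25 (SE 0.16, 95% interval 1.93 to 2.58, FDR 8.41e-11). Its footprints were 433 and 441 CPM with Tm alone and 51.1 and 63.1 CPM with Tm and ISRIB, scaled over 8 libraries. On that scale unstressed cells had 77.6 and 58.6 CPM without ISRIB and 43.2 and 41.3 CPM with it.

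The other ISR targets differed by 1.57 (PPP1R15A, SE 0.36), 2.22 (DDIT3, SE 0.48) and 2.68 (ATF5, SE 0.55). Among the uORF targets PTP4A1 differed by 1.81 (SE 0.21), PNRC2 by 1.53 (SE 0.26), BCL2L11 by 1.45 (SE 0.39), IFRD1 by 1.21 (SE 0.20), SAT1 by 0.94 (SE 0.14) and PPP1R15B by 0.70 (SE 0.15). In Tm-treated cells the log2 fold change with ISRIB was -1.70 (SE 0.13) for IFRD1, against -0.50 in unstressed cells. For UCP2, SLC35A4 and C7orf31 the difference did not pass, with FDRs of 0.278, 0.139 and 0.28. The interval for UCP2 ran from 0.00 to 1.15.

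**Figure D3:**
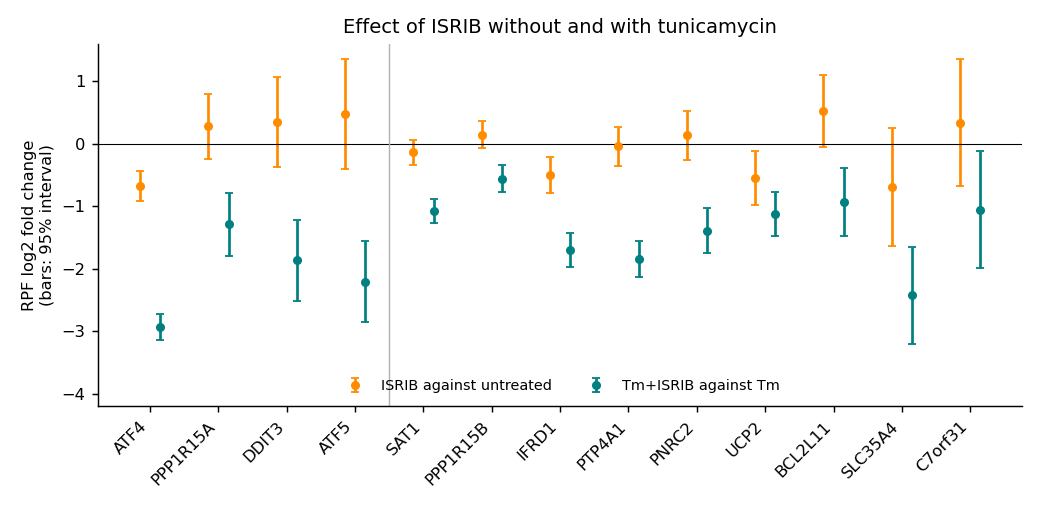
RPF log2 fold change with ISRIB (y axis, bars are 95% intervals) of the same 13 mRNAs without Tm (orange) and with Tm (teal), from 1 fit of 8 libraries. The teal points run from -0.56 (PPP1R15B) to -2.93 (ATF4), and 10 of the 13 orange intervals cross 0, the exceptions being ATF4, IFRD1 and UCP2.

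For genes of the eIF2 pathway itself the estimates were small. None of 9 tested passed, where 0.0162% of all transcripts did, 5 were above 0 and 4 below, the median was 0.02, and all 9 intervals lay within 2-fold. The highest was PPP1R15B and the lowest EIF2AK3, the ER-resident eIF2 kinase PERK, at -0.33 (SE 0.24, 95% interval -0.82 to 0.17), with 9.28 and 7.21 CPM untreated and 7.71 and 5.51 CPM with ISRIB. EIF2B3 and EIF2B4, subunits of the exchange factor on which ISRIB acts, were at -0.07 (SE 0.09) and -0.06 (SE 0.11).

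Of 11 genes regarded as regulated by ATF4 none passed, where 0.0162% of all transcripts did. Their estimates were above 0 for 3, against 49.9% of all transcripts, and below 0 for 8, with a median of -0.07. SLC6A9, a glycine transporter, was the lowest at -0.64 (SE 0.28), from 7.63 and 5.28 CPM to 4.07 and 4.05 CPM, and its mRNA was at 0.51 (SE 0.21). The highest was GADD45A, a stress-response gene, at 0.23 (SE 0.15). PHGDH, the first enzyme of serine synthesis, was at -0.08 (SE 0.08), and MTHFD2, a mitochondrial folate enzyme, at -0.03 (SE 0.08).

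The estimates of the ribosomal protein mRNAs tested were slightly above 0, although no member passed. The members were measured in the same 4 libraries and are not replicates. All 14 members tested, which are 13 ribosomal protein mRNAs and EEF1B2, an elongation factor subunit, had estimates above 0, against 49.9% of all transcripts, with a median of 0.13 and a range from 0.03 (RPL22) to 0.32 (RPL37A). Other lists leaned the same way, with 17 of 21 mitosis and DNA replication genes and 14 of 18 initiation and mRNA-binding factors above 0. Some leaned the other way, with 3 of 11 ATF4-regulated genes and 4 of 11 aminoacyl-tRNA synthetases above 0. The last 2 lists share YARS, SARS and EPRS. Across the alternatives the counts above 0 in these 4 lists ran from 13 to 18, 8 to 14, 3 to 6 and 2 to 6, in the order given. In 11 of the 14 ribosomal protein list members both ISRIB libraries were above both untreated ones, against 15.4% of all transcripts. In none were both below, against 16.4%. An unadjusted p under 0.05 was reached by 6 members, against 1.92% of all transcripts in the same direction. Their median mRNA log2 fold change was 0.00, and none of the 14 mRNAs passed.

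RPL37A had 913 and 1071 CPM untreated and 1150 and 1323 CPM with ISRIB, with a log2 fold change of 0.32 (SE 0.08) and an FDR of 0.805. RPS27 had 298 and 340 CPM against 385 and 392 CPM (0.28, SE 0.08, FDR 0.919). RPL37A mRNA was at -0.38 (SE 0.16) and RPS27 mRNA at 0.24 (SE 0.14). Their changes in translational efficiency were 0.70 (SE 0.20) and 0.05 (SE 0.17), and neither passed. The untreated Ribo-Seq libraries themselves differed in this list, with a median log2 ratio of b over a of 0.07, against 0.02 for ISRIB. Without the untreated library a 11 of 14 estimates were above 0 and none passed, and without the untreated library b 14 of 14 were above 0 and 5 passed. The median over the list ran from 0.10 to 0.17 across the alternatives. These are also abundant mRNAs, and the 2463 transcripts with the highest levels had a median of 0.02, against -0.08 for the 2463 with the lowest. The part of abundance in the difference was not tested.

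**Figure D4:**
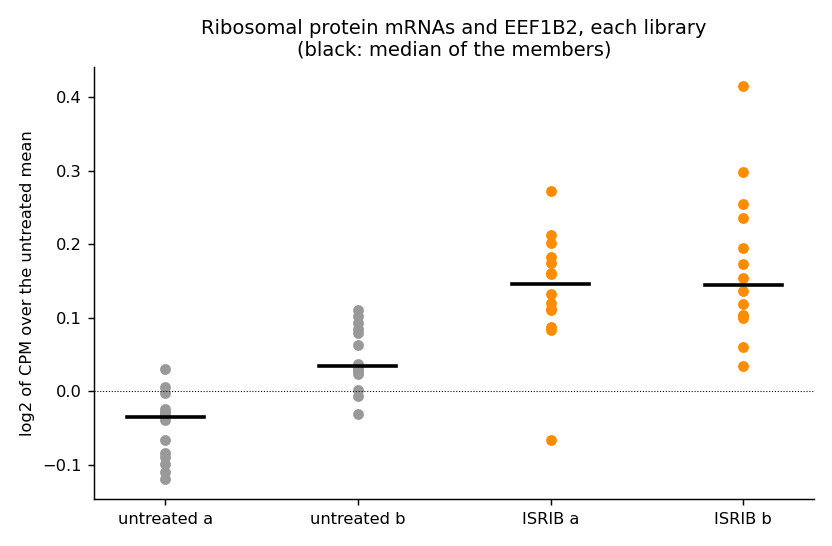
Level of the 14 ribosomal protein and EEF1B2 transcripts in each library, as log2 of the CPM over the mean of the untreated libraries, with black bars at the median. The medians are -0.04 and 0.03 in the untreated libraries and 0.15 in both ISRIB libraries, and the libraries' ranges overlap.

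In Tm-treated cells the same list was at a median of 0.54 with ISRIB. For 9 of its 14 members the ISRIB effect was lower in unstressed cells at an FDR of 0.1, against 3.61% of all transcripts. The study had reported slightly reduced translation of ribosomal protein and elongation factor mRNAs with Tm in these same libraries, reversed by ISRIB. The difference contains the contrast of Tm with untreated cells, so its direction is favoured by the choice of this list. These values are a description. RPL11 had a difference of -0.60 (SE 0.09), RPS27 one of -0.71 (SE 0.11) and RPL22 one of -0.45 (SE 0.10). ODC1, which makes the polyamine putrescine, stood with them at -0.78 (SE 0.11), being at -0.03 (SE 0.08) in unstressed cells and at 0.75 (SE 0.08) in Tm-treated ones.

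The remaining lists held no call, where 0.0162% of all transcripts passed, and their medians stayed close to 0. Initiation and mRNA-binding factors had a median of 0.02 over 18 members, from AGO4 at -0.17 (SE 0.23), an Argonaute protein, to YBX1 at 0.14 (SE 0.07), a cold-shock domain protein. The 11 aminoacyl-tRNA synthetases had a median of -0.04, from PARS2, a mitochondrial enzyme, at -0.37 (SE 0.19) to IARS2, another, at 0.10 (SE 0.09). The 26 genes of ER folding, glycosylation and degradation had a median of -0.02, from DPM3, a subunit of dolichol-phosphate mannose synthase, at -0.25 (SE 0.12) to CRELD1 at 0.42 (SE 0.23).

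Medians of the lists of growth and mitochondrial genes lay between -0.03 and 0.07. The median was 0.03 for 24 ribosome biogenesis genes, from RRP15 at -0.07 (SE 0.11) to GNL2 at 0.17 (SE 0.08), and 0.07 for 21 genes of mitosis and DNA replication, from the centromeric histone CENPA at -0.28 (SE 0.21) to CKAP2L at 0.20 (SE 0.11). It was -0.03 for 13 replication-dependent histone transcripts, from HIST2H2BF at -0.12 (SE 0.07) to HIST3H2A at 0.07 (SE 0.08). Near-identical histone copies can share reads, and some, such as the HIST2H4A transcripts, held identical counts and are not separate measurements. For 18 mitochondrial ribosome genes the median was 0.01, from MRPL53 at -0.13 (SE 0.12) to MRPL44 at 0.17 (SE 0.09). For 12 genes of the respiratory chain and ATP synthase it was -0.01, from NDUFB3 at -0.16 (SE 0.10) to UQCRH at 0.09 (SE 0.08), and for 6 proteasome genes 0.05, from PSMD4 at -0.01 (SE 0.07) to PSMD1 at 0.11 (SE 0.07).

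Of 20 immediate early and other short-lived mRNAs 14 were above 0, against 49.9% of all transcripts, with a median of 0.10. None passed, where 0.0162% of all transcripts did. In 8 both ISRIB libraries were above both untreated ones, against 15.4% of all transcripts. In 2 both were below, against 16.4%. The median mRNA log2 fold change of the list was 0.12, over the 19 members joined to mRNA-Seq. The median change in translational efficiency was -0.15, so the footprint median was not matched by one in efficiency. JUN, a subunit of the transcription factor AP-1, was the lowest, with 80.1 and 91.2 CPM untreated and 60.2 and 72.4 CPM with ISRIB. Its log2 fold change was -0.36 (SE 0.10) and its FDR 0.919, and its mRNA was at 0.15 (SE 0.11). The log2 fold change of JUN was -0.45 without the untreated library a (FDR 0.00349). It was -0.26 without the untreated library b, -0.24 without ISRIB library a and -0.51 without ISRIB library b, none of them past the threshold. CSRNP1, a nuclear protein of this class, was the highest at 0.43 (SE 0.27), with 4.11 and 4.36 CPM against 6.21 and 5.35 CPM. CSRNP1 mRNA was at 0.70 (SE 0.22).

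**Figure D5:**
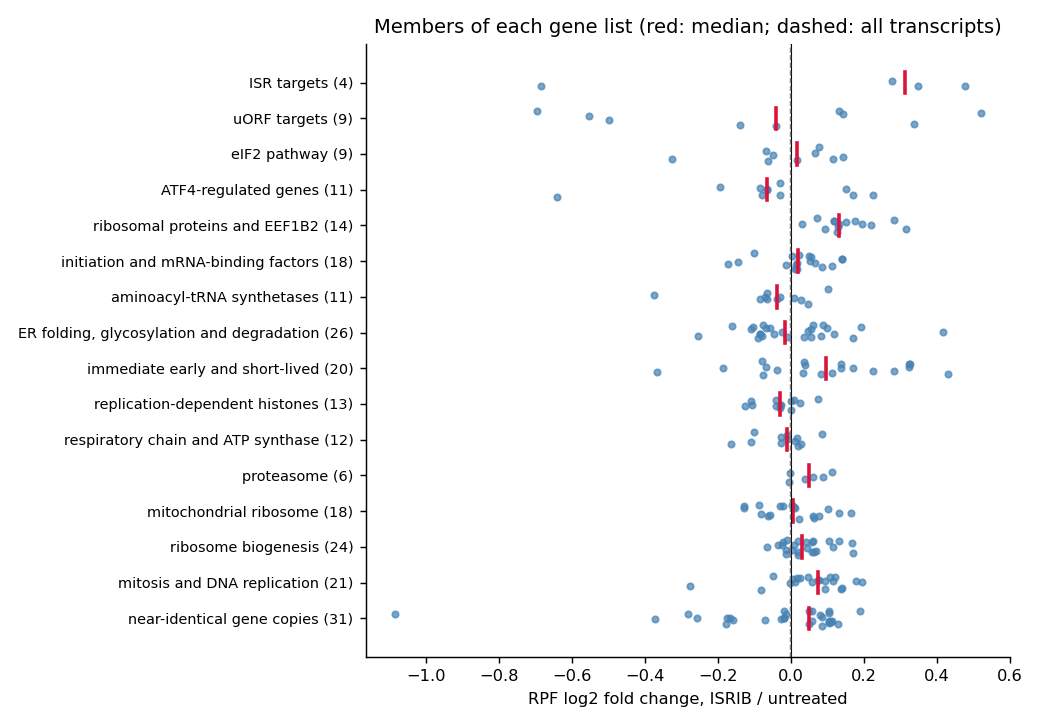
RPF log2 fold change (x axis) of each tested member of 16 gene lists, with the number tested in parentheses and the median as a red bar. The medians run from -0.07 (ATF4-regulated genes) to 0.31 (ISR targets), and those of the lists with more than 4 members stay between -0.07 and 0.13.

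Beyond the lists, the transcripts with a symbol and the smallest p-values in each direction did not pass. Besides RPL37A and RPS27 the higher ones were MACF1, a cytoskeletal crosslinker, at 0.40 (SE 0.11), SLC30A1, a zinc exporter, at 0.48 (SE 0.15), and HHAT, which palmitoylates Hedgehog proteins, at 0.95 (SE 0.30). SLC30A1 had 15.7 and 20.2 CPM untreated and 22.5 and 27.9 CPM with ISRIB, and its mRNA was at 0.49 (SE 0.13). HHAT rested on 23, 35, 20 and 40 counts. Besides IFRD1 and JUN the lower ones were IVNS1ABP, a Kelch-domain protein, at -0.42 (SE 0.12), and ADD2, a membrane skeleton protein, at -0.43 (SE 0.14). IVNS1ABP had 51.8 and 42.9 CPM untreated and 37.9 and 33.0 CPM with ISRIB, and in Tm-treated cells its estimate was 0.45 (SE 0.13), a difference of -0.86 (SE 0.18, FDR 0.00452). IVNS1ABP was chosen for its fall in unstressed cells, which the difference contains. The negative sign of the difference is favoured by that choice, so its value is a description. Leaving out the untreated library b put MACF1 at 0.60 (FDR 7.07e-06), SLC30A1 at 0.69 (FDR 0.0139) and IVNS1ABP at -0.56 (FDR 0.00472). Leaving out the untreated library a put them at 0.24, 0.33 and -0.28, and none passed.

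Transcripts that the study selected on these same libraries are given as a description. Of 59 listed as higher with Tm, 33 could be tested here, with a median of 0.13 and 21 above 0, against 49.9% of all transcripts. There was 1 call, ATF4, where 0.0162% of all transcripts passed. Of 19 listed as lower with Tm, 15 could be tested, with a median of -0.18, from EHBP1L1 at -0.61 (SE 0.32) to EPB41L4B at 0.34 (SE 0.23) and no call. These lists were chosen against the same untreated libraries, so their direction is not independent. Of the 9 listed for Tm with ISRIB, 4 were tested, with a median of -0.60, from AK302511 to ANKRD36 at -0.26 (SE 0.27).

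The list for ISRIB alone holds 4 transcripts of near-identical gene copies, and 1 of them, AK302511, had enough counts to be tested. It had 20 and 12 counts untreated and 5 and 3 with ISRIB, and its log2 fold change was -1.08 (95% interval -2.30 to 0.13), with mRNA at 0.80 (SE 0.25). Without 1 library the estimate ran from -1.68 (without ISRIB library a) to -0.43 (without the untreated library a), and none passed. Both AK310228 transcripts held 20, 8, 3 and 4 counts, and the NPIP transcript held 8, 3, 0 and 0. In all of them the untreated library a held the most. In the wider list of such copies 31 of 43 transcripts were tested, and none passed, where 0.0162% of all transcripts did. The median was 0.05, with ANKRD36B the highest at 0.19 (SE 0.27). Some copies, such as the PPIAL4B transcripts, held identical counts in each of the 4 libraries, so they are not separate measurements. How reads were assigned among copies limits these values.

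The mRNA of the same lysates showed no call in edgeR (0.00% of 11541), with 998 transcripts at an unadjusted p under 0.05 (8.65%), and DESeq2 called 20. In edgeR it was 128 with the replicate letter as a block, 129 with the spread of all 4 treatments, and 1249 or 1288 without ISRIB library a or b. For translational efficiency edgeR called none (0.00% of 11541), with 729 at an unadjusted p under 0.05 (6.32%), and DESeq2 called 18. That fit did not use that each lysate gave both libraries. With the lysate as a block, chosen after seeing the data, edgeR called 15, of which 7 were higher and 8 lower.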

How the data were processed

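Ribosome-protected fragments and mRNA were sequenced from HEK293T cells, 2 biological replicates per treatment, after cycloheximide arrest, with each lysate divided between the assays. The values are the authors' own whole-number counts for each coding sequence, by UCSC identifier, neither normalized nor pooled. The submitters' processing notes name CASAVA 1.8, Bowtie 1.0.0, TopHat2 2.0.7 and 2.0.10, and hg19. The counted length was 20 codons short of the annotated coding length. Symbols come from the readable source data of the study, which cover a part of the genome.

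Members and gene lists were chosen with earlier results of these data known. Transcripts with at least 10 counts in 2 or more of the 4 Ribo-Seq libraries were fitted with TMM normalization and the quasi-likelihood test of edgeR 4.0.16 (R 4.3.3), with Benjamini-Hochberg adjustment over all transcripts and an FDR of 0.1. The spread was estimated within the libraries compared (biological coefficient of variation 6.13%). For 11541 transcripts an mRNA-Seq transcript with the same identifier and counted length was joined, and translational efficiency was the interaction of assay and treatment. The standard error is the log2 fold change over the square root of F, and CPM use TMM-scaled totals. An exact permutation test of 2 against 2 cannot go below p = 0.333. Intervals are at 95%, and PCR copies cannot be told from separate fragments.

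Named were all ISR and uORF targets and the study's list for ISRIB alone, the 5 smallest p-values in each direction among non-overlapping transcripts with a symbol, the highest and lowest member of each list without calls, and the 5 smallest p-values of the difference between unstressed and Tm-treated cells. EIF2B3, EIF2B4, PHGDH and MTHFD2 were named besides, after their values were seen. Alternatives were DESeq2 1.42.0, other normalizations, filters and spreads, a replicate block, and leaving out each library. Scripts were tested on simulated data. Upstream AUGs come from GENCODE 29 (GRCh38), which matched 94.0% of 1985 transcripts with a symbol. Figures were drawn with matplotlib 3.10.9 in Python 3.11.15.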

Additional observations from a re-analysis of the deposited data

Results flagged for a closer look

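The results below stood out because the ISRIB effect on footprints in unstressed cells differed from that in Tm-treated cells in an edgeR test of the difference itself, at an FDR of 0.1. This was the case for 814 transcripts. Values are log2 differences, unstressed less Tm-treated.

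Among the ISR and uORF targets the difference was 2.68 for ATF5, 2.25 for ATF4, 2.22 for DDIT3, 1.81 for PTP4A1, 1.57 for PPP1R15A, 1.53 for PNRC2, 1.45 for BCL2L11, 1.21 for IFRD1, 0.94 for SAT1 and 0.70 for PPP1R15B. All but PPP1R15B are on the study's list of transcripts higher with Tm than without in these libraries, a contrast the difference contains, so the positive sign is favoured by that choice. The transcript uc001miq.3, with 5 counted codons, differed by 2.44. Smaller positive differences were seen for MRPL44 (0.42), HIST2H2BF (0.33) and PSMD1 (0.30). The transcript uc001miq.3 was named for its rise with ISRIB in unstressed cells. MRPL44 and PSMD1 were named as the highest members of their lists in that comparison, and HIST2H2BF as the lowest of its list. The difference contains that comparison, so the positive sign of uc001miq.3, MRPL44 and PSMD1 is favoured by their choice.

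The difference was negative for AK302511 (-2.67), IVNS1ABP (-0.86), ODC1 (-0.78), RPS27 (-0.71), RPL11 (-0.60) and RPL22 (-0.45). AK302511 rests on few counts and belongs to a family of near-identical copies. It is on the study's lists for ISRIB alone and for Tm with ISRIB, chosen from libraries this difference uses, so its value is a description. IVNS1ABP was named for its fall with ISRIB in unstressed cells, which the difference contains, so its negative sign is favoured by that choice. The study had reported ribosomal protein mRNAs, such as RPS27, RPL11 and RPL22, as less translated with Tm in these libraries. The difference contains that contrast, so their negative sign is favoured too. Each of these 20 transcripts kept its direction under all 14 alternatives. The call was lost under at least 1 of them for AK302511 (FDR up to 0.257), BCL2L11 (0.346), PSMD1 (0.373), MRPL44 (0.217), HIST2H2BF (0.194), RPL22 (0.137) and PPP1R15A (0.101).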

How the results depend on the processing

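The count of 2 RPF calls was 11 with total counts only (4 higher, 7 lower, against 1 and 1), 12 without a filter, 0 in DESeq2 and 2 with the replicate block. Without 1 library it ran from 1 to 139. The mRNA count of 0 became 169 without a filter, 129 with the spread of all 4 treatments, 20 in DESeq2 and 128 with the replicate block, and 0 to 1288 without 1 library, where the highest values, 1249 and 1288, left out ISRIB library a or b. For translational efficiency 0 became 1 with total counts, 6 without a filter, 24 with the spread of all 4 treatments, 18 in DESeq2, 15 with the lysate as a block (an alternative chosen after seeing the data), and 0 to 76 without 1 library. The 814 differences between unstressed and Tm-treated cells became 366 in DESeq2 and 229 to 1218 without 1 library. Where 1 library was left out, the lone replicate was assumed to vary like the other group. The cause was not tested. With normalization by DESeq2's size factors and with filterByExpr all 4 counts stayed within 1.5 times the reported ones.

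The letters a and b are not said to mark a shared batch, so no pairing was assumed. Deviations of same-letter libraries correlated at 0.218 over the 6876 better covered transcripts and at 0.0958 over all. With the replicate block the call of uc001miq.3 was lost (FDR 0.147), that of ATF4 was kept, and the translational efficiency count stayed at 0.

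Of 571 values of the 52 named transcripts under alternatives, 542 kept their direction and side of the threshold, 9 passed it newly, 4 lost it and 16 changed sign, each without 1 library. The ranges without 1 library were -0.13 to 0.39 for PNRC2, -0.025 to 1.00 for BCL2L11, -0.20 to 0.079 for PTP4A1, -1.07 to 0.91 for C7orf31, -0.067 to 0.12 for RPL22, -0.0059 to 0.15 for HIST3H2A, -0.031 to 0.021 for PSMD4, -0.25 to 0.018 for MRPL53, -0.18 to 0.060 for RRP15, -0.025 to 0.42 for ANKRD36B, -0.78 to 0.20 for ANKRD36 and -0.11 to 0.057 for ODC1.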
